A study of Mus musculus with 12 samples.

Results

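The genes described here are 10 immediate-early members, the FOS family (Fos, Fosb, Fosl1, Fosl2), the JUN family (Jun, Junb, Jund), the early growth response factors Egr1 and Egr2, and Ier3. Their rows were taken by gene symbol from a table of 32544 rows. The rule sets no threshold on measured values, although the list was drawn up with earlier results of these data known. All 10 passed the filter on low counts and are among the 14279 genes tested. The recipient cells were 3T3, an established mouse fibroblast line, and RNA was measured by bulk sequencing in 12 libraries, 3 for each of 4 groups. Untreated cells formed 1 group. The other groups received extracellular vesicles (EVs), small membrane-bound particles that cells release, for 24 h. The donor cells of all EVs were of the human breast cancer line MDA-MB-468 and were a control (shCon), carried a knockdown of CRIPTO (shCr) or overexpressed CRIPTO (CrOE). CRIPTO, a cell-surface co-receptor, was altered in the human donor cells, so the mouse libraries hold no direct check of it. The labels do not say that libraries of a group came from separate cultures, so p-values measure the spread between these libraries, which may be technical. The 3 CrOE columns carried the name Cripto alone and were assigned by elimination, and every CrOE value below rests on that step.

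The libraries held 25960054 to 37774020 counts each. Libraries of a group correlated at 0.986 to 0.994 (Pearson r across genes of log2 CPM). The CrOE libraries stood apart from every other group at 0.90 to 0.921, and the first principal component, 73.7% of the variance, separated them. The summed level of the 9 fibroblast markers was 15225 to 16212 CPM (counts scaled to a fixed library total, with TMM factors) in untreated cells, 17312 to 17484 with shCon EVs, 11857 to 13534 with shCr EVs and 4763 to 4951 with CrOE EVs. Against untreated cells all 9 were called lower with CrOE EVs, 2 higher and 3 lower with shCon EVs, and 2 higher and 5 lower with shCr EVs. Lum, a matrix proteoglycan gene, was at 0 in 2 CrOE libraries and at 0.0291 CPM in the third. Of the 8 epithelial markers the sum stayed between 0.966 and 2.32 CPM in every library, with Epcam at 0 throughout. Leukocyte markers summed to 7.03 to 10.3 CPM in untreated libraries and 3.35 to 4.58 CPM in CrOE libraries, with Adgre1 and Cd3e at 0 in both groups. Their sum was 7.24 to 8.57 CPM with shCon EVs and 6.84 to 8.59 CPM with shCr EVs. Endothelial markers summed to 0.589 to 0.769 CPM in untreated, 1.18 to 1.26 in shCon, 0.961 to 1.59 in shCr and 2.25 to 2.56 in CrOE libraries. Adipocyte markers summed to 34.4 to 40.4, 19.7 to 20.04, 19.4 to 25.2 and 3.77 to 4.27 CPM in the same order, so they were lower in all 3 EV groups. The part of these shifts in the results below, with any of the EVs, was not tested. In bulk RNA, fewer cells that express a gene and less RNA per cell cannot be told apart.

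Immediate-early genes are switched on within minutes of a growth factor, cytokine or stress signal, without new protein synthesis, and most of their transcripts are short-lived. The term names the list here and not the course of each member, as Jund is usually present in resting cells. FOS proteins pair with JUN proteins to form the transcription factor AP-1, which binds the sequence TGACTCA, and the EGR zinc-finger factors bind GC-rich sites. ERK, through the ternary complex factors and SRF at the CArG box, is a well-known route to Fos, Egr1 and Egr2 in serum-stimulated fibroblasts. The measurement here was made at a single time, and the course of the levels before it was not measured.

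The promoters of 5 members are shown because these genes span the patterns found, 3 that fell most with CrOE EVs (Fos, Fosb, Egr2), 1 that was not called there (Jun) and 1 that rose (Ier3). Sequences are from RefSeq on GRCm38.p6, up to 150 bases before an annotated start, 5′ to 3′ on the gene's strand, without bases that GENCODE M21 places in an exon. They lie at chr12:85473740-85473889 (Fos, plus strand), chr7:19310052-19310195 (Fosb, minus strand), chr10:67537719-67537868 (Egr2, plus strand, 1 of 5 listed starts), chr4:95052223-95052372 (Jun, minus strand) and chr17:35821563-35821683 (Ier3, plus strand). The submitters' processing notes name mm39, so these coordinates are not those of the count table. Capitals mark matches to the motifs searched.
Fos: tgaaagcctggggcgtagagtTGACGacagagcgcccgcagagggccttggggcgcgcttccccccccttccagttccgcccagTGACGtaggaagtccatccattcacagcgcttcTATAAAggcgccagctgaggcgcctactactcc
Fosb: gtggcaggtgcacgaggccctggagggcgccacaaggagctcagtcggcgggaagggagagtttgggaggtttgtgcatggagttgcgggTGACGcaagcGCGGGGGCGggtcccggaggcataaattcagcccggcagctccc
Egr2: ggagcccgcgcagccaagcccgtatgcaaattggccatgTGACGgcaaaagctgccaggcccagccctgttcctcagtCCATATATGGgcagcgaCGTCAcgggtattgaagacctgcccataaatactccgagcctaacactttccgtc
Jun: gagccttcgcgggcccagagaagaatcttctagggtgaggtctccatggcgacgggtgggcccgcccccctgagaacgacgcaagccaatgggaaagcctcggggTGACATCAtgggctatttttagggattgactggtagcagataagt
Ier3: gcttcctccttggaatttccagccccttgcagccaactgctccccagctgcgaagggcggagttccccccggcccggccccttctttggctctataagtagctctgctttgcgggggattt

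The motifs were the AP-1 site TGACTCA, the longer site TGACNTCA, the short site TGACG (which overlaps TGACNTCA where N is G), the CArG box, the EGR site GCGNGGGCG and the TATA sequence TATAAA, each read on both strands over the 250 bases before a start. Windows of 8 of the 10 members were searched. Those of Fosl1 and Egr1 were not, and the search did not cover every chromosome, so nothing is said on their motifs. Fos held the short site at 129 and at 66 bases before its start and TATAAA at 33 bases. No CArG box was found in its window, and bases farther upstream were not searched for any member. Fosb held the short site at 60 bases and an EGR site at 50 bases. Egr2 held a CArG box in the windows of 4 of its 5 starts, and in the one shown it lay 72 bases upstream, between 2 short sites at 111 and 55 bases. Some of these windows overlap and hold the same CCATATATGG, so the 4 are not separate matches. Jun held TGACATCA, a match to TGACNTCA, at 45 bases. Of the promoters not printed, Fosl2 held an EGR site at 79 bases and Junb a short site at 106 bases. None of the 6 motifs was found in the windows of Ier3 and Jund. Among all 32851 promoter windows of this length, 4.46% held TGACTCA, 7.49% TGACNTCA, 17.8% TGACG, 1.47% the CArG box, 4.70% GCGNGGGCG and 12.4% TATAAA. A match describes letters only and shows no binding in these cells.

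Each group was first compared with untreated cells, which asks how the members stood after a day with each kind of EV. A call is an adjusted p under 0.05 in edgeR's quasi-likelihood test over all genes. With shCon EVs, 9 of the 10 members were called, where 38.1% of all genes tested were. Of these, 8 were lower and 1 was higher, against 20.2% lower and 18% higher among all genes. The median log2 change of the members was -0.58, and that of all genes 0.01. With shCr EVs, 9 members were called against a background of 37.3%, 7 of them lower (18.8% of all genes) and 2 higher (18.4%), with a median of -0.58 (all genes 0.02). CrOE EVs also gave 9 calls, but there 73.7% of all genes were called, so the count itself says little about the members. Of those, 6 were lower (37% of all genes) and 3 higher (36.7%), and the members' median was -0.90 (all genes 0.01). All 10 members differed among the 4 groups, as did 81.3% of all genes. These comparisons share the untreated libraries, so a deviation in those libraries would enter all 3.

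**Figure D1:**
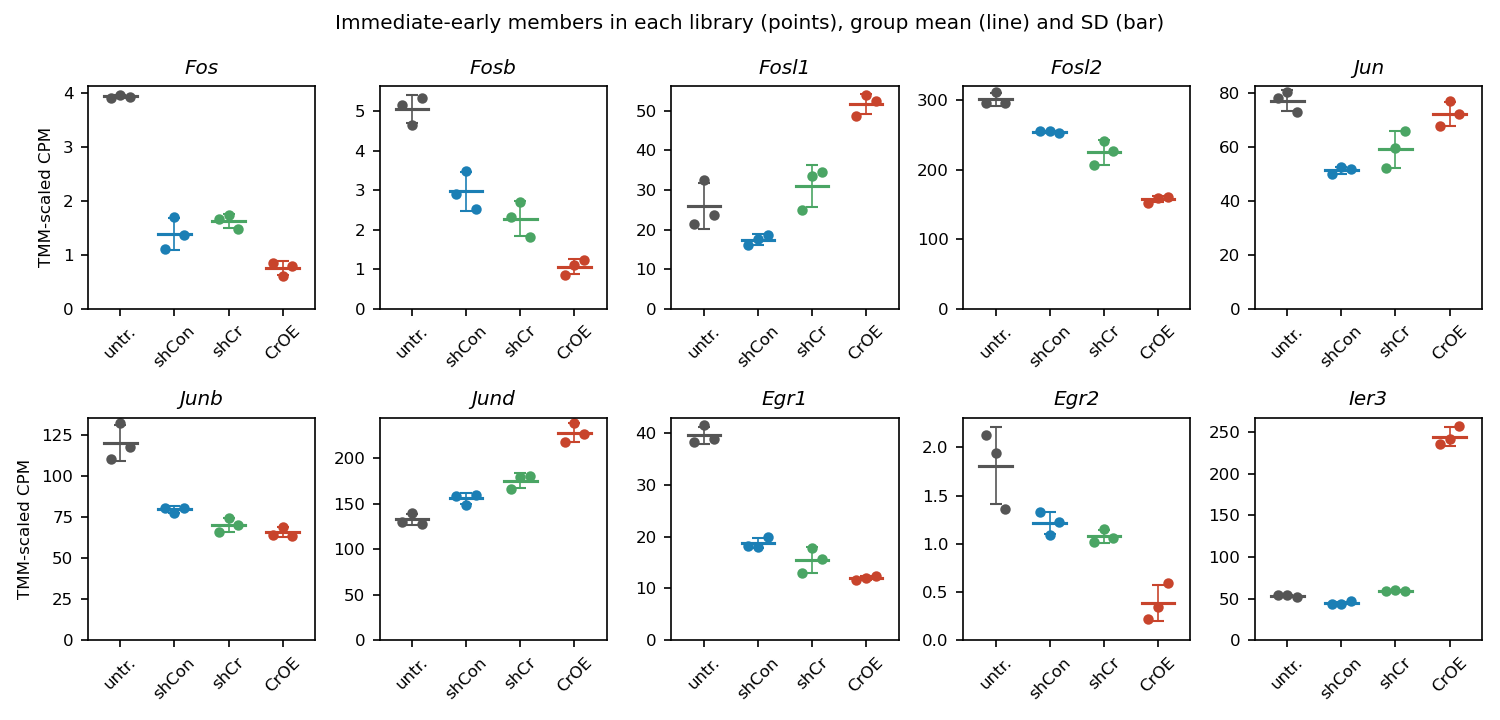
TMM-scaled CPM (y axis, from 0) of each member in each library by group (x axis, untr. is untreated), with the group mean as a line and the SD of 3 libraries as a bar. Fos, Egr1 and Junb were highest in the 3 untreated libraries, whereas Ier3 reached 235 to 257 CPM only in the CrOE libraries.

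Fos encodes the founding FOS subunit, an unstable protein that needs a JUN partner to bind DNA. It stood at 3.92, 3.96 and 3.94 CPM in the untreated libraries, 1.11, 1.69 and 1.37 with shCon EVs, 1.66, 1.73 and 1.48 with shCr EVs and 0.856, 0.611 and 0.786 with CrOE EVs. The untreated libraries were above all others, the CrOE libraries below all others, and the shCon and shCr libraries overlapped. Against untreated cells Fos fell 2.82-fold with shCon EVs (log2 -1.50 ± 0.17 SE, adjusted p = 2.02e-05), 2.43-fold with shCr EVs (-1.28 ± 0.16, adjusted p = 5.27e-05) and 5.23-fold with CrOE EVs (-2.39 ± 0.18, adjusted p = 6.19e-08). These levels rest on few reads, 104 to 107 counts in an untreated library and 21 to 28 in a CrOE library.

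Fosb, a related FOS subunit with a strong activation domain, followed the same order of extremes. Untreated libraries held 5.16, 4.65 and 5.33 CPM, shCon libraries 2.90, 3.49 and 2.52, shCr libraries 2.33, 2.69 and 1.80, and CrOE libraries 0.856, 1.11 and 1.24. As for Fos, only the shCon and shCr groups overlapped. The fall was 1.70-fold with shCon EVs (log2 -0.76 ± 0.17, adjusted p = 0.00379), 2.23-fold with shCr EVs (-1.16 ± 0.18, adjusted p = 0.000199) and 4.70-fold with CrOE EVs (-2.23 ± 0.19, adjusted p = 2.09e-07).

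Fosl1 (FRA-1) and Fosl2 (FRA-2) encode FOS subunits that lack the activation domain of FOS and are known to persist longer after stimulation. Fosl1 did not follow Fos. It was at 21.5, 32.5 and 23.7 CPM in untreated libraries, 16.1, 17.6 and 18.7 with shCon EVs, 24.9, 33.5 and 34.6 with shCr EVs and 48.7, 53.8 and 52.5 with CrOE EVs. The shCon libraries were below all others and the CrOE libraries above all others, and the untreated and shCr groups overlapped, with untreated replicate 2 high in its group and shCr replicate 1 low. Fosl1 fell 1.48-fold with shCon EVs (log2 -0.57 ± 0.15, adjusted p = 0.0104) and rose 2.00-fold with CrOE EVs (1.00 ± 0.15, adjusted p = 3.86e-05). With shCr EVs the difference was 0.26 (95% interval -0.06 to 0.58, adjusted p = 0.184), and it passed the threshold without untreated replicate 2 (0.46, adjusted p = 0.0146) or without shCr replicate 1 (0.39, adjusted p = 0.0261), in a range of 0.0146 to 0.559 over its 12 alternatives.

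In the GENCODE M21 annotation, 57.2% of the exon bases of Fosl1 lie opposite exons of Ccdc85b on the other strand. The libraries were directional, but whether counting used the strand is not given in the sources used here. Ccdc85b was at 25.4 ± 2.54 CPM in untreated cells, 17.2 ± 0.774 with shCon EVs, 24.7 ± 1.36 with shCr EVs and 8.82 ± 0.880 with CrOE EVs (SD, n = 3). It moved the other way from Fosl1 with CrOE EVs (log2 -1.53, adjusted p = 7.11e-09) and the same way with shCon EVs (-0.56, adjusted p = 0.000313). Its part in the Fosl1 values was not tested.

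Fosl2 held 296, 313 and 296 CPM in untreated libraries, 255, 255 and 253 with shCon EVs, 207, 241 and 227 with shCr EVs and 152, 160 and 161 with CrOE EVs. The 4 groups did not overlap and lay in that order. Its falls were smaller than those of Fos, 1.18-fold with shCon EVs (log2 -0.24 ± 0.06, adjusted p = 0.00458), 1.34-fold with shCr EVs (-0.42 ± 0.06, adjusted p = 8.10e-05) and 1.91-fold with CrOE EVs (-0.93 ± 0.06, adjusted p = 8.15e-09).

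Jun encodes the principal JUN subunit, which JNK phosphorylates. It stood at 78.2, 80.2 and 72.8 CPM in untreated libraries, 49.9, 52.4 and 51.8 with shCon EVs, 52.1, 59.5 and 65.7 with shCr EVs and 67.8, 76.8 and 72.1 with CrOE EVs. The shCon libraries were low, the CrOE libraries reached into the untreated range, and shCr replicate 1 lay within the shCon range. Jun fell 1.5-fold with shCon EVs (log2 -0.59 ± 0.08, adjusted p = 8.97e-05) and 1.30-fold with shCr EVs (-0.38 ± 0.08, adjusted p = 0.00198). With CrOE EVs it was not called (-0.09, 95% interval -0.26 to 0.08, adjusted p = 0.299), the one member of which this holds.

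Junb, a JUN subunit often described as restraining JUN, held 110, 132 and 117 CPM in untreated libraries, 80.4, 77.4 and 80.7 with shCon EVs, 65.7, 74.4 and 70.4 with shCr EVs and 64.2, 69.0 and 63.5 with CrOE EVs. All untreated libraries were above all others, and the shCr and CrOE libraries overlapped. The fall was 1.51-fold with shCon EVs (log2 -0.59 ± 0.07, adjusted p = 2.98e-05), 1.71-fold with shCr EVs (-0.77 ± 0.07, adjusted p = 2.76e-06) and 1.83-fold with CrOE EVs (-0.87 ± 0.07, adjusted p = 1.29e-07). Exons of Prdx2 lie opposite 7.52% of the exon bases of Junb, and Prdx2 also fell in each of these comparisons, from 378 ± 22.5 CPM in untreated cells to 258 ± 7.50, 293 ± 45.4 and 239 ± 13.7 with shCon, shCr and CrOE EVs (adjusted p = 0.000449, 0.00664 and 2.40e-05).

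Jund, the JUN subunit usually present in resting cells, moved opposite to Junb. Its levels were 130, 140 and 128 CPM in untreated libraries, 159, 149 and 159 with shCon EVs, 166, 179 and 181 with shCr EVs and 218, 239 and 227 with CrOE EVs. The 4 groups did not overlap. Jund rose 1.17-fold with shCon EVs (log2 0.23 ± 0.06, adjusted p = 0.00650), 1.32-fold with shCr EVs (0.40 ± 0.06, adjusted p = 0.000116) and 1.72-fold with CrOE EVs (0.78 ± 0.06, adjusted p = 4.58e-08), and it was the only member higher in all 3 comparisons. Gm11175 and Junos, annotated opposite 52.6% of the exon bases of Jund and 7.28% of those of Jun, had no row of their own in the table, so their reads cannot be told apart from those of the 2 genes if strand was not used.

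Egr1 encodes an EGR factor that is among the first genes to respond to ERK. It was at 38.3, 41.5 and 38.8 CPM in untreated libraries, 18.2, 18.1 and 19.9 with shCon EVs, 13.0, 17.8 and 15.6 with shCr EVs and 11.5, 12 and 12.4 with CrOE EVs. All 4 groups were separate and in that order, although shCr replicate 2 lay just below the lowest shCon library. Egr1 fell 2.11-fold with shCon EVs (log2 -1.08 ± 0.10, adjusted p = 2.36e-06), 2.55-fold with shCr EVs (-1.35 ± 0.10, adjusted p = 3.03e-07) and 3.29-fold with CrOE EVs (-1.72 ± 0.10, adjusted p = 3.52e-09).

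Egr2, a paralog of Egr1 best known in myelinating Schwann cells, was the least abundant member per length. It held 2.12, 1.94 and 1.36 CPM in untreated libraries, 1.32, 1.10 and 1.22 with shCon EVs, 1.02, 1.15 and 1.06 with shCr EVs and 0.222, 0.349 and 0.590 with CrOE EVs. The CrOE libraries were low, at 7 to 21 counts each, and the shCon and shCr groups overlapped. Egr2 fell 4.58-fold with CrOE EVs (log2 -2.20 ± 0.29, adjusted p = 1.45e-05). With shCon EVs the difference was -0.57 (95% interval -1.12 to -0.02, adjusted p = 0.0937). With shCr EVs it was -0.74 (adjusted p = 0.0355), a call that was lost without untreated replicate 1 or 2 or without any 1 of the 3 shCr libraries (adjusted p = 0.0613 to 0.125, in a range of 0.0219 to 0.125 over its 11 alternatives).

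Ier3, known as IEX-1, is an immediate-early gene for a protein of the stress and survival response and is no transcription factor. Untreated libraries held 53.7, 53.8 and 52.2 CPM, shCon libraries 43.4, 44.1 and 46.7, shCr libraries 58.8, 60.4 and 59.1, and CrOE libraries 235, 242 and 257. The 4 groups did not overlap, and the shCon libraries were lowest. Ier3 rose 4.6-fold with CrOE EVs (log2 2.20 ± 0.05, adjusted p = 9.87e-13), the largest rise of any member. It fell 1.19-fold with shCon EVs (-0.25 ± 0.05, adjusted p = 0.00178) and was 1.12-fold higher with shCr EVs (0.16 ± 0.05, adjusted p = 0.0255). The last of these calls was lost without untreated replicate 1 or 3 and without shCr replicate 2 or 3 (adjusted p = 0.0526 to 0.106, in a range of 0.0173 to 0.106 over its 12 alternatives).

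**Figure D2:**
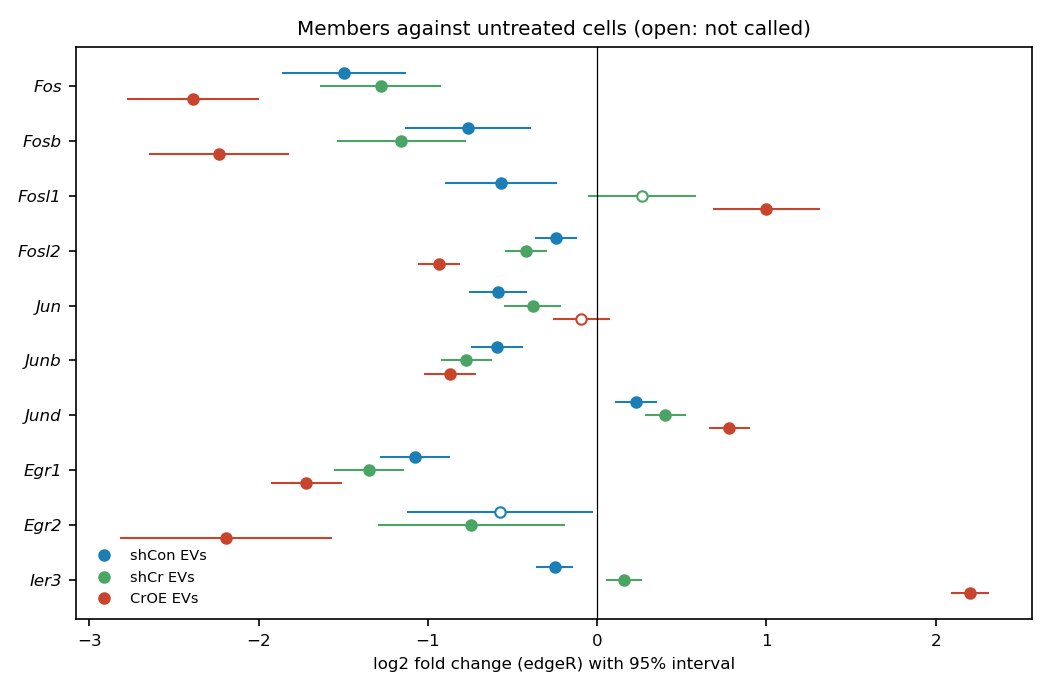
Log2 fold change against untreated cells (x axis) of each member (y axis) with shCon, shCr and CrOE EVs, with 95% intervals from edgeR and open points for differences that were not called. With CrOE EVs the members ran from -2.39 for Fos to 2.20 for Ier3, and Jun lay at -0.09.

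The EV groups were then compared with each other, which asks whether the members differed between EVs of donor cells that differed in CRIPTO. The 4 groups hold no separate control for the overexpression. In comparisons with CrOE EVs, CRIPTO and any other difference between the donor cells cannot be told apart. Between shCr and shCon EVs, 2 of 10 members were called, against 8.73% of all genes, and both were higher (5.22% of all genes were higher and 3.51% lower). Fosl1 was 1.78-fold higher with shCr EVs (log2 0.83 ± 0.15, adjusted p = 0.00438) and Ier3 1.33-fold higher (0.41 ± 0.05, adjusted p = 0.000313). Ccdc85b was higher as well (0.52, adjusted p = 0.00298). No member was called lower by edgeR. At an unadjusted p under 0.05 in the same test, 4 were higher and 4 lower. DESeq2 called 2 higher and 1 lower (Fosl2).

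The 8 members that were not called between shCr and shCon EVs had log2 differences from -0.39 to 0.22. The 95% interval of Fos was -0.17 to 0.60, that of Fosb -0.79 to 0.00, that of Jun 0.03 to 0.38, that of Egr1 -0.48 to -0.06 and that of Egr2 -0.74 to 0.40. The data thus do not show that the EV groups were alike in these members. Without shCr replicate 1, the library that stood farthest from its group, Jun (0.28, adjusted p = 0.0167) and Jund (0.20, adjusted p = 0.0327) were called too, making 4 members. Without shCr replicate 2, Egr1 (-0.38, adjusted p = 0.0279) and Fosl2 (-0.23, adjusted p = 0.0372) were called, also making 4. Over all 12 alternatives the adjusted p ran from 0.0167 to 0.360 for Jun, 0.0327 to 0.296 for Jund, 0.0279 to 0.310 for Egr1 and 0.0250 to 0.208 for Fosl2.

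CrOE EVs differed from shCon EVs in all 10 members, where 72.6% of all genes were called. Lower were 6 members (36.1% of all genes), namely Egr2 (3.08-fold, log2 -1.62 ± 0.30, adjusted p = 0.000298), Fosb (2.77-fold, -1.47 ± 0.20), Fos (1.86-fold, -0.89 ± 0.20), Fosl2 (1.61-fold, -0.69 ± 0.06), Egr1 (1.56-fold, -0.64 ± 0.10) and Junb (1.21-fold, -0.28 ± 0.07). Higher were 4 members (36.5% of all genes), Ier3 (5.47-fold, 2.45 ± 0.05, adjusted p = 6.77e-13), Fosl1 (2.96-fold, 1.57 ± 0.15), Jund (1.46-fold, 0.55 ± 0.06) and Jun (1.41-fold, 0.49 ± 0.08). For Jun the level with CrOE EVs was above the low shCon level but not above that of untreated cells, against which it was not called. Fosl1 and Ier3 were called higher than with shCon EVs both with EVs of the knockdown and with EVs of the overexpressing cells.

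CrOE EVs against shCr EVs gave 9 calls (73.9% of all genes), 5 lower (37%) and 4 higher (36.9%). Fos was 2.15-fold lower (log2 -1.11 ± 0.19, adjusted p = 0.000155), Fosb 2.11-fold lower (-1.08 ± 0.20), Egr2 2.74-fold lower (-1.45 ± 0.30), Fosl2 1.43-fold lower and Egr1 1.29-fold lower. Ier3 was 4.12-fold higher (2.04 ± 0.05, adjusted p = 1.81e-12), Fosl1 1.66-fold higher, Jund 1.30-fold higher and Jun 1.22-fold higher. Junb was not called (-0.10, 95% interval -0.25 to 0.06, adjusted p = 0.228). In every comparison that includes the CrOE libraries, the fall of the fibroblast marker sum given above accompanied these differences, and its part in them was not tested.

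**Figure D3:**
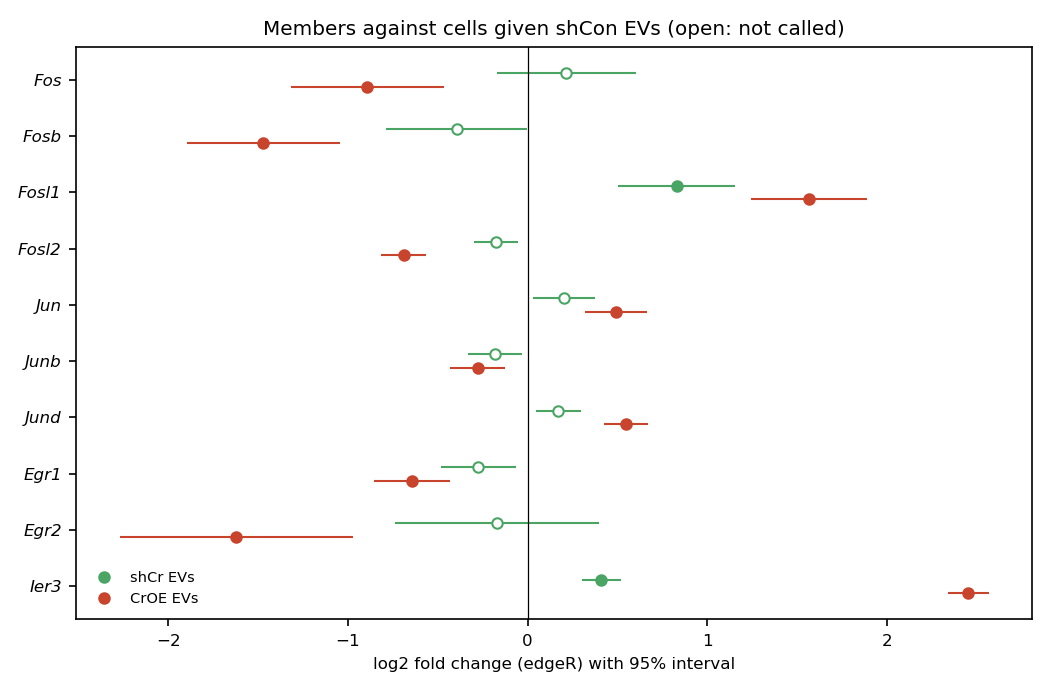
Log2 fold change against cells given shCon EVs (x axis) of each member (y axis) with shCr and CrOE EVs, with 95% intervals from edgeR and open points for differences that were not called. With shCr EVs only Fosl1 (0.83) and Ier3 (0.41) were called, and with CrOE EVs all 10 were, from -1.62 for Egr2 to 2.45 for Ier3.

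Levels of different members were compared per length, as TMM-scaled CPM per kb of merged exons in GENCODE M21. That annotation may differ from the one used for counting, so the order is approximate. In untreated cells Jund was highest at 79.5 ± 3.88 CPM per kb (SD, n = 3), then Junb at 52.1 ± 4.83, Ier3 at 47.1 ± 0.826, Fosl2 at 31.1 ± 1.00, Jun at 24.2 ± 1.21, Fosl1 at 12.7 ± 2.87 and Egr1 at 8.82 ± 0.384. Fos, Fosb and Egr2 were far lower, at 1.67 ± 0.00990, 0.809 ± 0.0570 and 0.533 ± 0.117. The gap between Junb and Ier3 was about the size of the SD of Junb, and no neighbours in this order overlapped between libraries. With CrOE EVs Ier3 came first at 216 ± 9.82, ahead of Jund at 137 ± 6.34, and Fosl1 at 25.4 ± 1.30 and Jun at 22.7 ± 1.40 overlapped, both above Fosl2 at 16.3 ± 0.494.

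The make-up of each family follows from the same per-length levels and is given without a test. Fosl2 made up 63.7% to 70.0% of the summed FOS family signal in untreated libraries and Fosl1 24.2% to 31.5%. In CrOE libraries the order per length was turned, with Fosl1 at 59.6% to 61.0% and Fosl2 at 38.0% to 39.1%. In CPM, without division by length, Fosl2 stayed above Fosl1 with CrOE EVs (158 against 51.7). The opposite-strand overlaps of Fosl1 and Jund given above apply to these shares too. The shCr libraries lay between, with Fosl1 at 35.4% to 41.1%, and the shCon libraries held the lowest Fosl1 share, 22.5% to 25.4%. Fos and Fosb were minor in every group, Fos at 3.32% to 3.82% in untreated and 0.598% to 0.905% in CrOE libraries. The summed FOS family level was 43.6 to 50.7 CPM per kb in untreated libraries, 35.2 to 36.3 with shCon EVs, 34.7 to 42.5 with shCr EVs and 40.2 to 43.4 with CrOE EVs, and was thus lowest on average with shCon EVs. In the JUN family the share of Jund went from 50.4% to 51.8% in untreated libraries to 72.6% to 73% with CrOE EVs, and that of Junb from 31.9% to 34.5% down to 14.8% to 15.5%.

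**Figure D4:**
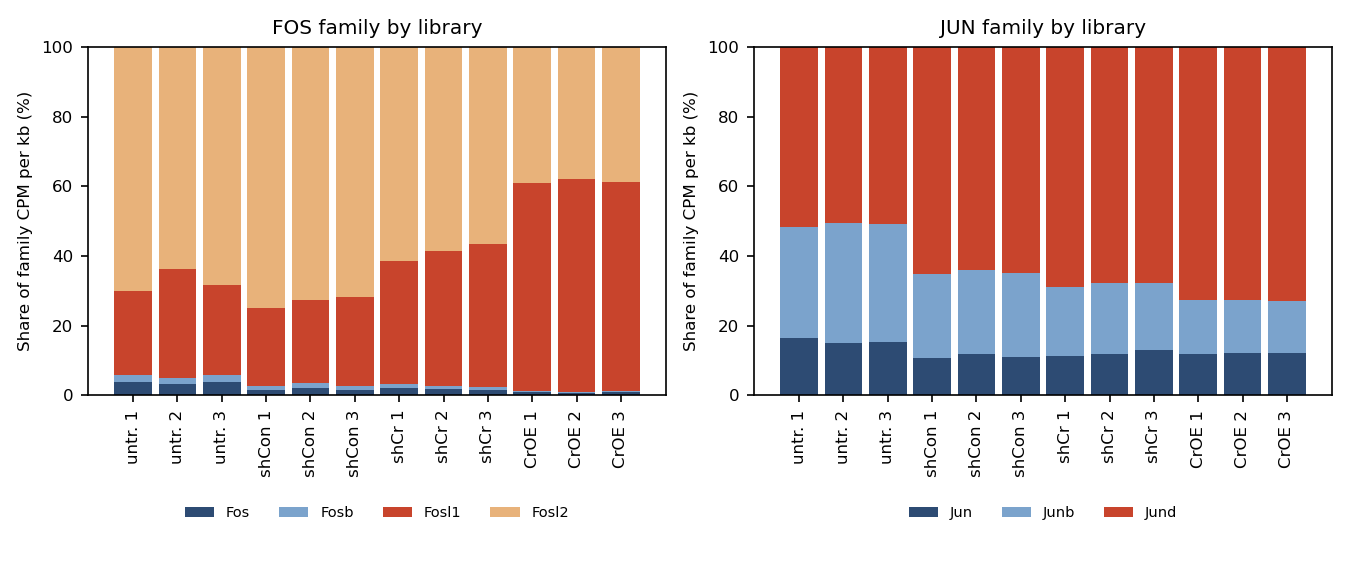
Share of the summed CPM per kb of the FOS family (left) and the JUN family (right) held by each member (y axis, percent) in each of the 12 libraries (x axis). Fosl1 was 59.6% to 61.0% of the FOS family in the CrOE libraries and 24.2% to 31.5% in the untreated ones, and Jund rose from 50.4% to 51.8% up to 72.6% to 73% of the JUN family.

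Other genes of the pathway were taken from 4 lists. Their counts are read against the shares of all genes called given above, 38.1% with shCon EVs, 37.3% with shCr EVs and 73.7% with CrOE EVs. Of 38 other immediate-early genes tested, 25 were called with shCon EVs (8 higher, 17 lower), 23 with shCr EVs (8 higher, 15 lower) and 31 with CrOE EVs (14 higher, 17 lower), the last near the share of all genes. Their median log2 changes were -0.24, -0.07 and -0.04. Between shCr and shCon EVs 13 of them were called (10 higher, 3 lower), where 8.73% of all genes were. Nr4a1, an orphan nuclear receptor, fell with all 3 EVs, from 39.3 ± 3.5 CPM to 14.2 ± 1.0, 27.3 ± 2.7 and 6.13 ± 0.64 (log2 -1.47, -0.52 and -2.68). Socs3, an inhibitor of JAK-STAT signalling, fell from 194 ± 6.6 to 9.83 ± 0.88 CPM with CrOE EVs (-4.30 ± 0.07, adjusted p = 7.08e-14). Egr3, a further EGR factor, was at 0.976 ± 0.29 CPM untreated and fell with shCr EVs (-1.10, adjusted p = 0.00456) and CrOE EVs (-2.09, adjusted p = 2.04e-05).

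Some of these genes rose with CrOE EVs, as Ier3 did. Myc, a growth regulator, stood at 34.9 ± 1.6 CPM untreated, 34.4 ± 2.1 with shCon EVs and 29.8 ± 4.7 with shCr EVs, and rose to 235 ± 14 with CrOE EVs (log2 2.75 ± 0.10, adjusted p = 5.49e-11). Ier2 rose from 15.8 ± 3.0 to 43.6 ± 1.8 CPM with CrOE EVs (1.47 ± 0.11), with 16.4 CPM in both other EV groups. Gadd45a, a DNA damage and stress gene, rose with each EV (1.79, 1.52 and 2.91).

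The next list held bZIP (leucine-zipper) factors outside the FOS and JUN families, among them ATF, MAF, CREB and C/EBP genes. Not all of them are established AP-1 partners, so the counts describe this list and not AP-1 partners as a class. Of 20 tested, 11 were called with shCon EVs (10 higher, where 18% of all genes were higher). With shCr EVs 12 were called (11 higher, against 18.4%) and with CrOE EVs 17 (13 higher, against 36.7%). Their median log2 changes were 0.26, 0.57 and 0.58, and those of all genes 0.01, 0.02 and 0.01. Atf3, a stress-induced partner of JUN, stood at 14.2 ± 1.7 CPM untreated and 14.8 ± 0.31 with shCon EVs, rose to 23.2 ± 0.47 with shCr EVs (log2 0.70, adjusted p = 2.04e-05) and to 144 ± 11 with CrOE EVs (3.34 ± 0.08, adjusted p = 1.48e-12). Ddit3 (CHOP) rose with each EV (1.20, 1.14 and 3.54). Maff, a small MAF protein, rose with shCr EVs (0.72) and CrOE EVs (0.68) and not by the test with shCon EVs (0.09, adjusted p = 0.362). Maf rose with shCon EVs (0.88) and shCr EVs (1.03) and fell with CrOE EVs (-2.44 ± 0.07).

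Genes of ERK, JNK and SRF signalling were called at about the shares of all genes. Of 42 tested, 18 were called with shCon EVs (7 higher, 11 lower), 14 with shCr EVs (5 higher, 9 lower) and 33 with CrOE EVs (15 higher, 18 lower), with medians of -0.01, -0.02 and -0.11. Srf, which binds the CArG box, fell by 0.41 (log2) with shCon EVs and by 0.19 with shCr EVs, and was not called with CrOE EVs (-0.09, adjusted p = 0.206). Of the ternary complex factors, Elk3 fell with each EV (-0.40, -0.39 and -1.35), Elk1 rose slightly (0.29, 0.34 and 0.19), and Elk4 rose with CrOE EVs alone of the 3 tests (0.58, adjusted p = 0.000543).

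Mapk3 (ERK1) fell with CrOE EVs (log2 -0.75 ± 0.06, adjusted p = 1.18e-07) and was not called with shCon EVs (-0.15, adjusted p = 0.0737) or shCr EVs (0.06, adjusted p = 0.444). Map2k6, a kinase that activates p38, fell with each EV (-1.18, -0.51 and -2.98), and Rps6ka2, an RSK kinase downstream of ERK, rose with shCon EVs (0.20) and CrOE EVs (1.94 ± 0.06).

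The last list was built around feedback inhibitors of ERK and of EGR factors, and it split by gene. It was broad and also held Rasa1, Rasa2, Rasal2, Nf1, Pdcd4, Fbxw7 and Peli1. Its counts therefore describe the list and not feedback inhibitors as a class. Of 27 tested, 16 were called with shCon EVs (4 higher, 12 lower), 16 with shCr EVs (8 higher, 8 lower) and 21 with CrOE EVs (8 higher, 13 lower), the last near the 73.7% of all genes. Their median log2 changes were -0.16, 0.00 and -0.17. Between shCr and shCon EVs 10 were called higher, where 5.22% of all genes were. Nab2, a corepressor of EGR factors that they induce, fell from 98.4 ± 12 CPM to 70.6 ± 1.0, 75.6 ± 7.7 and 18.6 ± 1.4 (log2 -0.48, -0.38 and -2.40 ± 0.10), and Nab1 fell with CrOE EVs (-0.87). The ERK phosphatase Dusp6 fell with each EV (-1.36, -1.08 and -0.69). Dusp5 fell with shCon EVs (-2.46 ± 0.14) and shCr EVs (-2.05 ± 0.13) and was not called with CrOE EVs (-0.16, adjusted p = 0.227).

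In contrast, Dusp4 rose with each EV, from 13.5 ± 1.2 CPM to 23.2 ± 1.2, 35.0 ± 2.0 and 197 ± 13 (log2 0.78, 1.38 and 3.87 ± 0.08). Dusp1 rose with shCr EVs (0.48) and CrOE EVs (0.88). Spry2, an inhibitor of receptor tyrosine kinase signalling, fell with shCon EVs (-0.57), rose with shCr EVs (0.39) and fell with CrOE EVs (-1.25), and was 0.96 ± 0.06 higher with shCr than with shCon EVs (adjusted p = 1.94e-06).

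**Figure D5:**
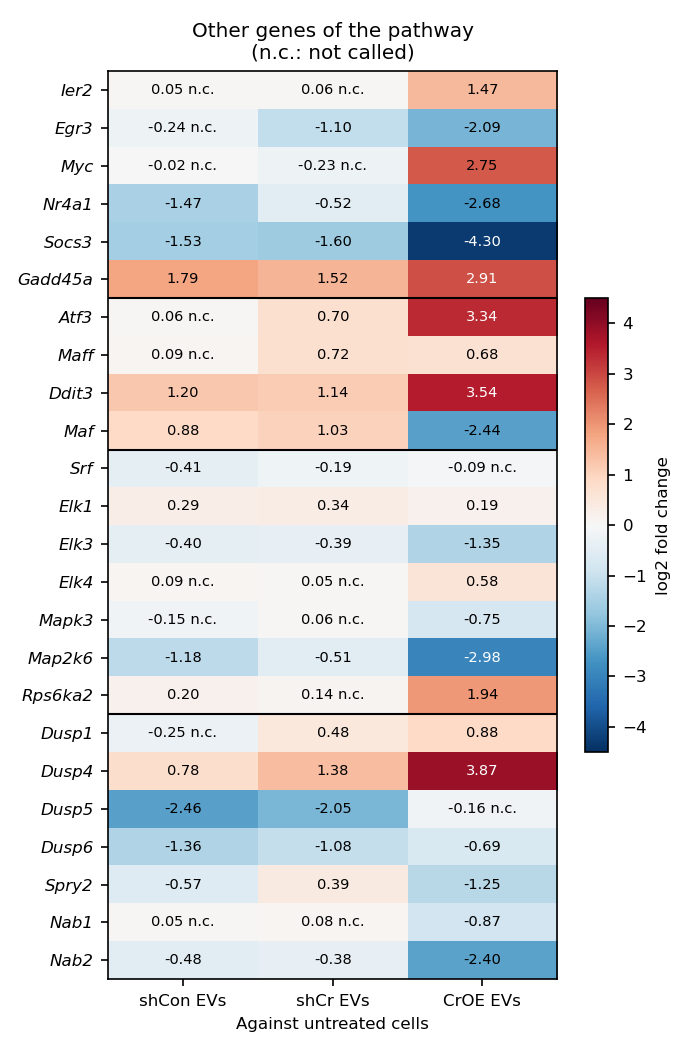
Log2 fold change against untreated cells (colour and printed value) of 24 pathway genes (rows) with shCon, shCr and CrOE EVs (columns). The 4 blocks are other immediate-early genes, bZIP factors outside the FOS and JUN families, ERK, JNK and SRF signalling, and feedback inhibitors. A difference that was not called is marked n.c. With CrOE EVs the values ran from -4.30 for Socs3 to 3.87 for Dusp4.

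Among 11557 genes that are not members and whose mean log2 CPM was 1 or more, those nearest in pattern over the 4 group means were found for Fos, Jun and Egr1, by the Euclidean distance of centred log2 CPM. This describes 4 points per gene and carries no test. Nearest to Fos were Sdc4, a cell-surface proteoglycan (distance 0.16), the IL-33 receptor gene Il1rl1 (0.24) and Ank3 (0.31). Sdc4 went from 169 ± 1.64 CPM in untreated cells to 62.7 ± 2.36, 74.2 ± 5.20 and 31 ± 1.97 with shCon, shCr and CrOE EVs. Nearest to Egr1 were the matrix glycoprotein gene Tnc (0.10), Acadvl (0.13) and the actin-binding Tagln (0.17), and Tnc went from 445 ± 37.1 CPM to 199 ± 6.54, 179 ± 9.70 and 135 ± 0.841. Nearest to Jun were Hacd1 (0.06), Dnajb6 (0.07) and Ptgs1, the cyclooxygenase-1 gene (0.07), and Ptgs1 went from 353 ± 20.7 CPM to 247 ± 7.41, 265 ± 8.60 and 328 ± 1.26.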

How the data were processed

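The authors deposited 1 table of counts per gene symbol for the 12 libraries, without scaling between libraries. The deposited values were taken as estimated counts, because 30.1% differed from a whole number by more than 0.001. Per the submitters' processing notes, featureCounts and mm39 were used, with no version and no role stated. Per the labels' protocols, RNA was poly(A)-selected and the libraries were directional. A spreadsheet had turned 27 symbols into dates, which held up to 0.259% of a library's counts.

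Counts were rounded, filtered by filterByExpr on the 4 groups (14279 genes left), scaled by TMM and tested with edgeR 4.0.16 in R 4.3.3 (glmQLFit, glmQLFTest) in 1 model of 12 libraries with a mean per group and 8 residual degrees of freedom, with Benjamini-Hochberg adjustment over all genes and a call under 0.05. The design had foreseen both whole and estimated counts. Standard errors and 95% intervals were derived from the F statistic. The procedure was tested on simulated data. The alternatives tried were DESeq2 1.42.0, its size factors within edgeR, testing without the filter, requiring 10 counts in each library, a block for the replicate number, fitting the 2 groups compared by themselves, and leaving out each library. Log2 CPM used a prior count of 2.

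The members and lists were chosen with earlier results of these data known. Genes named were all members, 17 pathway genes fixed by name (1 of them is counted in its list but not reported here), the largest rise and fall among a list's calls (mean log2 CPM 1 or more), and the 3 genes nearest in pattern to Fos, Jun and Egr1. Same-numbered libraries did not deviate together throughout, so replicate numbers were not taken to pair libraries. Stretches of 31 bases shared with other genes made up at most 0.41% of a member's transcripts. Counting error grows at low counts, and PCR copies were not separated from molecules.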

Additional observations from a re-analysis of the deposited data

Results flagged for a closer look

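2 members were called in opposite directions against untreated cells in different EV groups, and the difference itself passed the test. Fosl1 was 1.57 (log2) higher with CrOE EVs than with shCon EVs (adjusted p = 7.26e-07), having risen by 1.00 with the first and fallen with the second (-0.57). Ier3 fell with shCon EVs (-0.25) and was 0.41 higher with shCr than with shCon EVs (adjusted p = 0.000313) and 2.45 higher with CrOE than with shCon EVs (adjusted p = 6.77e-13). These differences share the shCon libraries.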

How the results depend on the processing

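Of 714 recomputed member fold changes, none reversed direction, 695 kept their direction and side of the threshold, 12 lost the call and 7 gained one. The lost calls were those of Egr2 and Ier3 between shCr EVs and untreated cells. That of Ier3 was also lost with no low-count filter (adjusted p = 0.0891) and in a model of the 2 groups alone (adjusted p = 0.0944). For shCr against shCon EVs, 1247 genes were called, a count that fell to 641 in a model of the 2 groups alone and ran from 632 to 1396 with 1 library left out (688, 632 and 666 without shCon replicate 1, 2 and 3), and the number of members called there ran from 2 to 4 (4 without shCr replicate 1 or 2). DESeq2 called 3 members there, adding Fosl2 (adjusted p = 0.0250).

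The replicate number may not pair the libraries. Same-numbered libraries of different groups deviated with correlations of -0.38 to 0.61, over 0.1 in 8 of 18 pairs, and 14 of 36 times a library correlated best with its own number. With the replicate number as a block, members called were 9, 8 and 9 against untreated cells (shCon, shCr and CrOE EVs), 2 between shCr and shCon EVs, 10 between CrOE and shCon EVs and 9 between CrOE and shCr EVs, and genes called were 5691, 5529, 10657, 1281, 10511 and 10677 in the same order. The block ended the call of Egr2 with shCr EVs (adjusted p = 0.0545) and no other call of a member. Depth limits Egr2, with 7 to 58 counts a library, and Fos, with 21 to 107.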

Other observations

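Other genes of the 4 lists moved between the EV groups. Spry3, a Sprouty inhibitor of receptor tyrosine kinase signalling, was at 8.85 ± 0.688 CPM with shCon EVs and fell to 1.48 ± 0.113 with CrOE EVs (log2 -2.58 ± 0.11, adjusted p = 3.71e-10). Sgk1, a serum-induced kinase, went from 56.6 ± 5.37 CPM in untreated cells to 39 ± 1.36, 26.2 ± 2.17 and 21.9 ± 0.551 with shCon, shCr and CrOE EVs, and was lower with shCr than with shCon EVs (-0.57 ± 0.08, adjusted p = 0.000604). Atf5, a stress-responsive bZIP factor, rose with each EV (1.32, 1.10 and 0.78) and most with shCon EVs, being lower with CrOE than with shCon EVs (-0.54 ± 0.10, adjusted p = 0.000375).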
